A study of Mus musculus with 10 samples.

Results

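Thoc7, Thoc1, Thoc2, Thoc3, Thoc5, Thoc6, Nxf1 and Ddx39b are genes of mRNA export, and all 20 probe sets that the array annotation assigns to exactly 1 of these 8 genes were taken from the 45037 probe sets that remained without the array's own controls. The set was chosen by the signal of Thoc7, whose groups had stood apart in these same data, so the Thoc7 values are given as a description with no test. The tissue was the whole hippocampus of female Balb c/J mice, an inbred strain, which shared a birth date and were about 8 weeks old when behavioral testing began. Mice were ranked by a composite score of repeated open field sessions, in which movement through an arena is recorded. The 5 High Exploration mice came from the active end of the ranking and the 5 Low Exploration mice from the other end, with 1 array per mouse and no treatment in either group. The design text of the series describes a different experiment on handled pups, so the tissue and groups follow the sample labels. Values are MAS 5.0 signals, a linear measure of the brightness of a probe set after correction for background and for mismatched probes.

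THO is a multiprotein complex that binds nascent transcripts and, together with the RNA helicase Ddx39b and the adaptor Alyref, forms TREX, the assembly that couples transcription and splicing to export of mRNA from the nucleus. TREX hands the mRNA to Nxf1, the export receptor that carries it through the nuclear pore. In humans, inherited changes in THOC2 and THOC6 cause intellectual disability, so the complex is known to matter for brain development.

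RefSeq places Thoc7 on the minus strand of chromosome 14 and lists a pair of start sites for it in the promoter table. The 250 bases upstream of both starts are shown because the gene that set this group of genes apart has a choice of start, and the array signal does not say which start was used. Capitals mark the GC box, GGGCGG or CCGCCC on the printed strand, and both windows run 5′ to 3′ on the strand of the gene.
Outer start, GRCm38.p6 chr14:13961853-13962102, minus strand: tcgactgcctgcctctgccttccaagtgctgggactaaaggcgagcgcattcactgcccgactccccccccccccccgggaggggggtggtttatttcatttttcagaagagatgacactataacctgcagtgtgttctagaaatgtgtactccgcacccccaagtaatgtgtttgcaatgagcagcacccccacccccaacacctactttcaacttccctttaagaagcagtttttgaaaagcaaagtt
Inner start, GRCm38.p6 chr14:13961314-13961563, minus strand: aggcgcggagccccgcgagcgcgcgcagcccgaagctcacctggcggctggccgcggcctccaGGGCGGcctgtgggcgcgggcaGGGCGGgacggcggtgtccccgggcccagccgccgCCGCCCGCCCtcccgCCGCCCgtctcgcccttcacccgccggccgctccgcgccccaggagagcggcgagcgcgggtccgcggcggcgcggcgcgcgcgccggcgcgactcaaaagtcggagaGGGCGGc
The inner window held 49 CpG dinucleotides and 6 GC boxes, of which 1 pair overlaps, and the outer window held 6 CpG dinucleotides and no GC box. Windows of 6 of the 8 genes were used, without Thoc1 and Thoc3, which gave 8 windows in all. Any window of the 8 genes on a chosen chromosome was left out by hand, which was not done for the windows of all genes. Their CpG counts ranged from 6 to 49 with a median of 21.0, where the median of all 32851 windows was 6.0. A GC box was present in 5 of the 8 windows, those of Nxf1 (both), Thoc2, Thoc6 and the inner start of Thoc7, and in 32.7% of all windows. The Nxf1 windows overlap over most of their length and are nearly the same sequence, yet they are counted separately here and in the CpG median. A TATA box (TATAAA) was found in 0 of the 8 windows and in 12.4% of all windows. The ETS motif CCGGAAG was found upstream of Ddx39b and Thoc5, and in 6.91% of all windows. The CCAAT motif occurred upstream of Thoc6 alone among the 6 genes, and in 33.8% of all windows. The cAMP response element TGACGTCA was found in 0 of the 8 windows, and in 1.55% of all windows. Both strands were searched, and a match is only a run of letters, since no binding was measured.

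Thoc7, a subunit of THO, had 2 probe sets on the array, 1 bright and 1 dim. Probe set 1448461_a_at, designed on a full-length cDNA or RefSeq transcript, had signals of 12282.8, 10573.1, 9378.2, 9425.8 and 7044.5 in High Exploration mice, against 3870.3, 3444, 1889.1, 3061.2 and 1647 in Low Exploration mice. The lowest High Exploration array was thus well above the highest Low Exploration array, and the groups did not overlap. On the log2 scale this gave 13.23 ± 0.29 for High Exploration mice, against 11.36 ± 0.55 for Low Exploration mice (SD, 5 arrays per group), a difference of 1.86 or 3.64-fold. Among the 22518 probe sets with a mean log2 signal above the median, to which all tests below were limited, 216 had a larger positive difference. Groups did not overlap for 8.83% of these probe sets, for 2.14% with High Exploration on the upper side and for 6.69% with it on the lower side. Over all 45037 probe sets these shares were 6.01% in either direction and 1.17% with High Exploration on the upper side. Since the gene was picked for this separation, nothing is read from these shares about Thoc7.

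The other Thoc7 probe set, 1453621_at, was designed on an expressed sequence tag, a short read of a cDNA, and lay near the bottom of the signal range. It had 25.4, 9.1, 28.3, 21.8 and 20.4 in High Exploration mice, against 134.9, 112.2, 33.2, 11 and 36.9 in Low Exploration mice. Here 4 of 5 Low Exploration arrays were above every High Exploration array, and Low Exploration replicate 4 was among the lowest. The log2 difference was −1.23, with 4.29 ± 0.65 for High Exploration mice and 5.52 ± 1.47 for Low Exploration mice (SD, 5 arrays per group). It was −0.80 with 23.0 added to every signal before log2 and −0.60 after quantile normalisation, and ran from −1.74 to −0.84 with single arrays left out. This probe set was below the limit on signal, and whether it detected a transcript was not tested. Once each group's mean was subtracted, the 2 Thoc7 probe sets had a Pearson's r of 0.32 over the 10 arrays, given as a description.

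**Figure D1:**
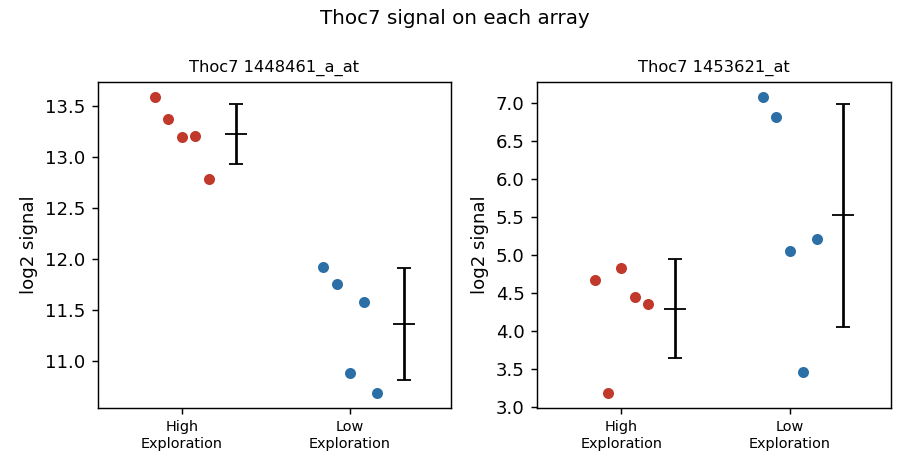
Log2 signal (vertical axis) of the 2 Thoc7 probe sets on each array, with High Exploration left of Low Exploration. Each point is 1 mouse, and black marks with bars give mean and SD per group. The points of 1448461_a_at do not overlap (12.78 and above against 11.92 and below), and those of 1453621_at do.

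The size of the difference on 1448461_a_at depended on how the arrays were scaled. It was 2.40 after median centring, 2.47 with the hybridisation controls of all arrays set equal, 1.45 after quantile normalisation and 1.43 after cyclic loess. Median centring and equal controls add 1 constant, 0.54 and 0.61, to the log2 difference of every probe set. Relative to the median of all tested probe sets, which was itself −0.31 as deposited, Thoc7 was 2.17 higher as deposited, 1.46 higher after quantile normalisation and 1.45 higher after cyclic loess. Without single arrays the log2 difference of Thoc7 as deposited, not relative to the median, ranged from 1.69 (without Low Exploration replicate 5) to 2.00 (without Low Exploration replicate 1).

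Control transcripts on the same arrays moved with the groups. The hybridisation controls, bacterial and phage transcripts added to each labelled sample in fixed amounts, averaged 13.63 ± 0.31 on the log2 scale for High Exploration mice, against 14.24 ± 0.29 for Low Exploration mice (SD, 5 arrays per group). The poly-A controls, which are added before labelling, averaged 12.49 ± 0.47 for High Exploration mice, against 14.12 ± 0.44 for Low Exploration mice. They ran from 11.84 to 13.06 in High Exploration and from 13.58 to 14.67 in Low Exploration mice, without overlap. The Gapdh 3′ probe set exceeded the 5′ probe set by 4.72 ± 0.48 log2 units for High Exploration mice, against 3.72 ± 0.23 for Low Exploration mice. Within each group the array with the lowest Thoc7 signal, replicate 5, was also the array with the highest hybridisation controls, 14.03 in High Exploration and 14.71 in Low Exploration. Thoc7 log2 signal less the hybridisation controls of the same array does not change when an array is multiplied by a constant. This difference lay between −1.25 and 0.12 in High Exploration mice and between −4.03 and −2.03 in Low Exploration mice. With the level of these controls entered as a covariate, the Thoc7 difference was 1.18. The poly-A controls and the Gapdh difference were not entered as covariates. The part of the controls in the result was not tested further. In tissue of many cell types, fewer cells that hold a transcript and less of it per cell cannot be told apart.

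**Figure D2:**
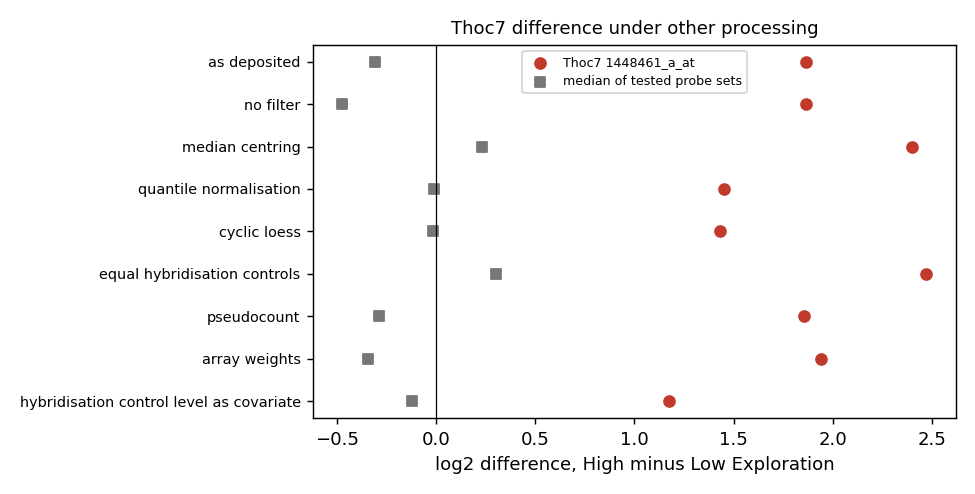
Difference in log2 signal between High and Low Exploration (horizontal axis) under each kind of processing (rows). Red points show Thoc7 1448461_a_at, which ran from 1.18 to 2.47, and gray squares show the median of all tested probe sets, which ran from −0.47 to 0.30.

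The other subunits and partners did not share a direction. Of the 11 other probe sets that entered the test, 5 were higher and 6 lower in High Exploration mice. Most of the higher ones were of Thoc1, which went both ways. The tested probe set of Nxf1 was higher, and those of Thoc2, Thoc3 and Ddx39b were lower. The median log2 difference of the 11 was −0.14, where 38.1% of all 22518 tested probe sets were higher and the median was −0.31. None of the 11 passed limma's threshold of 0.05 after Benjamini-Hochberg adjustment over all tested probe sets, where 0.0133% of all tested probe sets, 3 in number, passed. At an unadjusted limma p under 0.05 there were 3 of the 11, all of Thoc1, beside 30.2% of all tested probe sets. Groups did not overlap for 0 of the 11, beside 8.83% of all tested probe sets. The remaining 8 probe sets of the whole set, among them the only ones of Thoc5 and Thoc6, were below the limit on signal and left out of the main test.

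**Figure D3:**
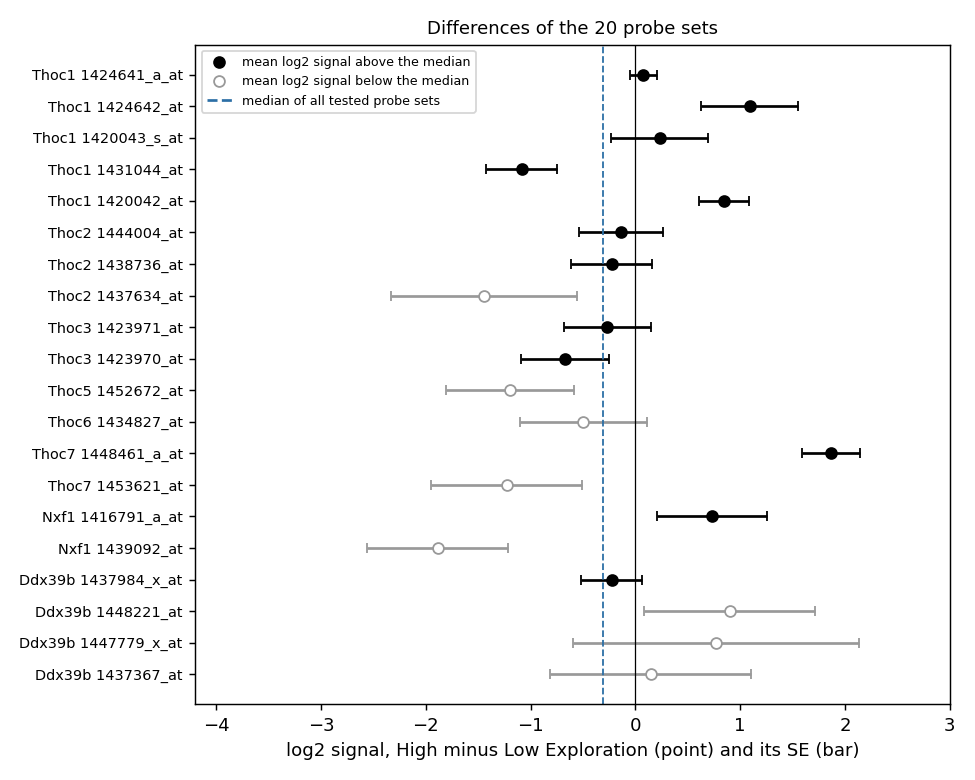
Difference in log2 signal, High minus Low Exploration (horizontal axis), for each of the 20 probe sets (rows), with the SE from the SDs of both groups. Filled black points are the 12 probe sets above the limit on signal, open gray points the 8 below it, and the dashed line is the median of all tested probe sets at −0.31. Thoc7 1448461_a_at lies farthest to the right, at 1.86, and Nxf1 1439092_at farthest to the left, at −1.89.

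Thoc1, a core subunit of THO, had 5 probe sets, and these disagreed with each other. The one with the highest signal, 1424641_a_at, had 3346.6, 4037.6, 3541.4, 3159.4 and 4428.5 in High Exploration mice, against 2934.4, 3475.7, 3091.4, 3876.8 and 4194.3 in Low Exploration mice. The groups overlapped over most of their range, and the log2 difference was 0.08 (SE 0.29, limma adjusted p = 0.873). Probe set 1424642_at had 3133, 4485, 3872.6, 1307.9 and 1392.4 in High Exploration mice, against 2331.7, 904.3, 776.3, 1126 and 1218.1 in Low Exploration mice. Here High Exploration replicates 1, 2 and 3 were higher than every Low Exploration array, while replicates 4 and 5 lay below Low Exploration replicate 1 (log2 difference 1.09, SE 0.45, limma adjusted p = 0.130). Without Low Exploration replicate 1 the groups did not overlap, as was then so for 14.6% of all tested probe sets, and the difference was 1.34 (limma adjusted p = 0.0857).

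The 3 other Thoc1 probe sets went both ways. Probe set 1420042_at had 376.7, 341.7, 245.5, 280.3 and 435.4 in High Exploration mice, against 207.5, 193.9, 169, 253.9 and 119 in Low Exploration mice. All but 1 High Exploration array were above all Low Exploration arrays (log2 difference 0.85, SE 0.33, limma adjusted p = 0.116), and it did not pass. With median centring, under which 906 of all 22518 tested probe sets passed, the difference was 1.38 (limma adjusted p = 0.0498). Under the other alternatives with all arrays the limma adjusted p ran from 0.0652 (equal controls) to 0.743 (covariate). Probe set 1431044_at had 268.6, 157, 264, 263.8 and 489.2 in High Exploration mice, against 739.7, 342.7, 555.6, 537.1 and 817.5 in Low Exploration mice. In this one 4 of 5 Low Exploration arrays were above every High Exploration array (log2 difference −1.09, SE 0.38, limma adjusted p = 0.0948). Probe set 1420043_s_at, a type that can bind transcripts of related genes, differed by 0.23 (SE 0.45, limma adjusted p = 0.744). Without Low Exploration replicate 4 its difference was −0.10.

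Thoc2, the large scaffold subunit of THO, had overlapping groups on its brightest probe set. On 1444004_at the signals were 3490, 2603.6, 3032.3, 4267.3 and 6955.2 in High Exploration mice, against 1783.9, 4735.7, 4722.5, 6135.9 and 5336.3 in Low Exploration mice. Low Exploration replicate 1 was the lowest of all 10 arrays and the other 4 Low Exploration arrays lay inside the range of the High Exploration mice (log2 difference −0.14, SE 0.41, limma adjusted p = 0.841). Without Low Exploration replicate 1 the difference was −0.44. It was −0.52 after quantile normalisation, and 0.40 after median centring, which shifts every probe set alike. Probe set 1438736_at differed by −0.23 (SE 0.41, limma adjusted p = 0.720), and 1437634_at, below the limit on signal, by −1.44.

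Thoc3, a subunit built of WD repeats, was not separated between the groups on either of its probe sets. On 1423971_at the signals were 414.7, 594.2, 1272.1, 366.8 and 306.4 in High Exploration mice, against 902.1, 448.4, 567.5, 474.4 and 818.6 in Low Exploration mice. High Exploration replicate 3 was the highest of all arrays, although the lowest 2 arrays were also from High Exploration mice (log2 difference −0.27, SE 0.42, limma adjusted p = 0.681). Probe set 1423970_at differed by −0.67 (SE 0.42, limma adjusted p = 0.288). The 2 Thoc3 probe sets were opposed within the groups, with r of −0.51 over the 10 arrays after the group means were removed.

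Thoc5 and Thoc6, 2 further subunits of THO, were below the limit on signal and left out of the main test. Without that limit the limma adjusted p was 0.260 for Thoc5 and 0.635 for Thoc6. Thoc5 1452672_at had 22.3, 35.1, 117, 13.7 and 43.6 in High Exploration mice, against 65, 158.1, 109.1, 73.2 and 42.1 in Low Exploration mice (log2 difference −1.20). Thoc6 1434827_at had 27.3, 65.1, 33.2, 25.7 and 31.8 in High Exploration mice, against 58.9, 15, 158.8, 33.6 and 57.5 in Low Exploration mice (log2 difference −0.50). The groups overlapped for both genes, and the highest array was Low Exploration replicate 2 for Thoc5 and Low Exploration replicate 3 for Thoc6.

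Nxf1, the receptor that carries mRNA through the pore, was even across High Exploration mice and uneven across Low Exploration mice. Probe set 1416791_a_at had 1780, 1555.5, 1689.2, 1290.2 and 1645.1 in High Exploration mice, against 353.4, 1406.6, 1743.5, 2006.8 and 455.3 in Low Exploration mice. Low Exploration replicates 1 and 5 were below all other arrays, and the other 3 Low Exploration arrays were within or above the range of the High Exploration mice. The SD of log2 signal was 0.18 for High Exploration mice, against 1.16 for Low Exploration mice (5 arrays per group), and the difference between the means was 0.73 (SE 0.49, limma adjusted p = 0.319). Without Low Exploration replicate 1 it was 0.37. Probe set 1439092_at, below the limit on signal, went the other way, with 171.9, 25, 42, 49.6 and 72.7 in High Exploration mice, against 251.7, 316.1, 294.3, 56.4 and 340.2 in Low Exploration mice (log2 difference −1.89). Only Low Exploration replicate 4 overlapped with the High Exploration arrays there.

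Ddx39b, the helicase of TREX, had 1 bright and 3 dim probe sets. The bright one, 1437984_x_at, had 2183, 3324.7, 3982.1, 2205.9 and 3206.3 in High Exploration mice, against 3667.7, 3991.8, 4761.1, 1824.9 and 3524.7 in Low Exploration mice. The lowest and the highest array were both from Low Exploration mice, and the groups overlapped (log2 difference −0.23, SE 0.36, limma adjusted p = 0.678). The difference was −0.60 after quantile normalisation and after cyclic loess, and 0.31 after median centring, which shifts every probe set alike. The dim probe sets 1448221_at, 1447779_x_at and 1437367_at differed by 0.90, 0.77 and 0.15, with group SDs of 1.20 to 2.34 on the log2 scale (n = 5 each).

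**Figure D4:**
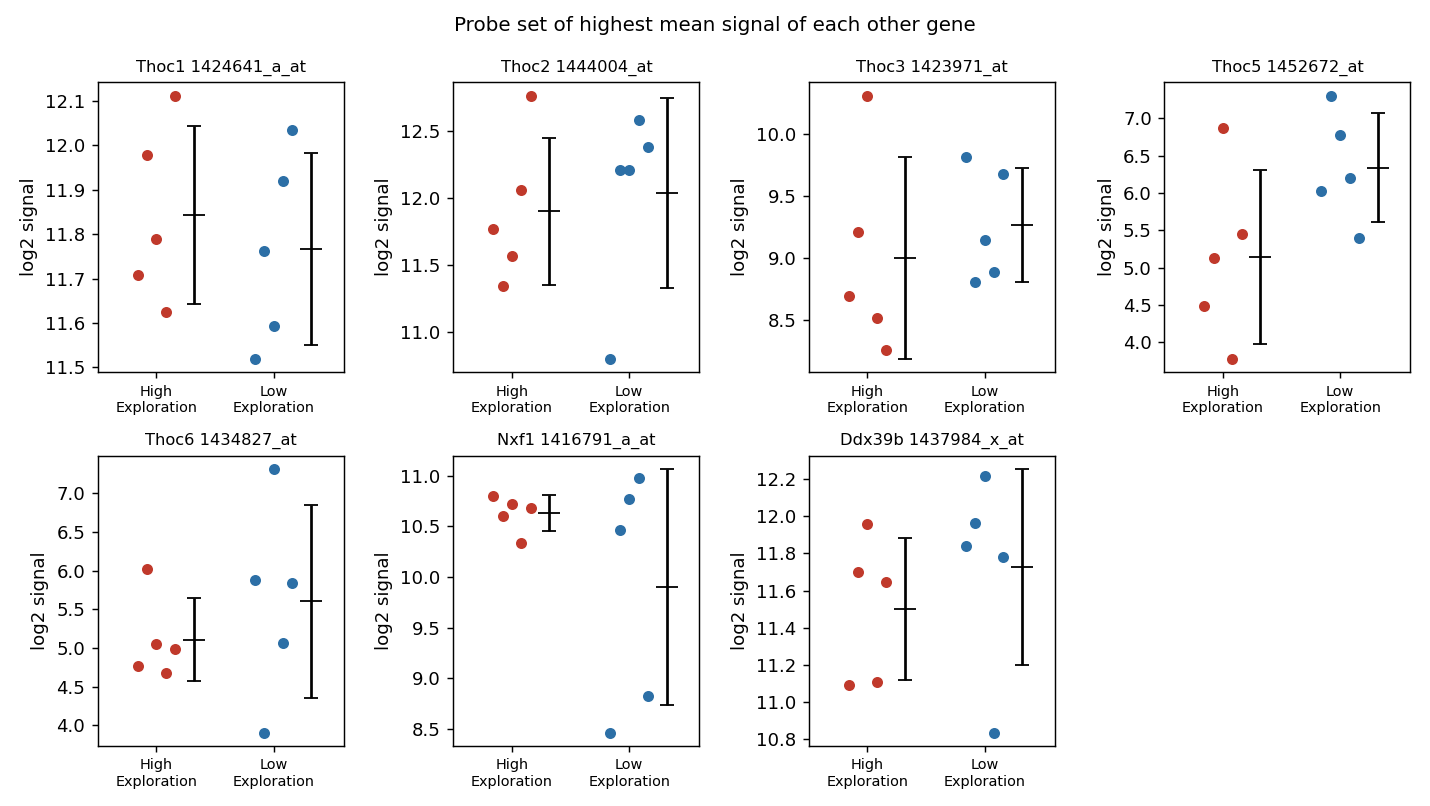
Log2 signal (vertical axes, which differ between panels) of the brightest probe set, by mean signal, of each of the other 7 genes, with High Exploration left of Low Exploration. Each point is 1 mouse and black marks with bars give mean and SD per group. The groups overlap in all 7 panels, and Low Exploration replicates 1 and 5 are the 2 low points of Nxf1.

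Probe sets of the same gene shared little of their pattern within the groups. With each group's mean subtracted, r was positive for 6 of the 12 pairs of same-gene probe sets that both entered the test, with a median of 0.02. Over all 10004 such pairs on the array r was positive for 56.6%, with a median of 0.08. The closest pair was that of Thoc2, 1444004_at and 1438736_at, with r of 0.61 over the 10 arrays. These correlations describe arrays that share their scaling, and carry no test.

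The within-group pattern of Thoc7, a measure that the choice of the gene did not use, was compared with 18077 other probe sets of single named genes. The most similar were Prpf39 (r = 0.97), Ptpn2 (0.97), Gfpt1 (0.96), Neto1 (0.94) and Bivm (0.94), over 10 arrays with the group means removed. Prpf39 is a splicing factor of the U1 particle, Ptpn2 a protein tyrosine phosphatase, Gfpt1 the first enzyme of hexosamine synthesis and Neto1 an auxiliary protein of glutamate receptors. After quantile normalisation r for these 5 ran from 0.91 to 0.98. In each of the 5, the lowest High Exploration array was replicate 5 and the lowest Low Exploration array was replicate 5 as well, as in Thoc7. For the other genes of the set the likeness was lower. Among their 11 tested probe sets r with Thoc7 ran from −0.59 (Thoc2 1444004_at) to 0.49 (Thoc1 1424642_at), within the range of −0.66 to 0.68 that holds the middle of all probe sets from the 5th to the 95th percentile.

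**Figure D5:**
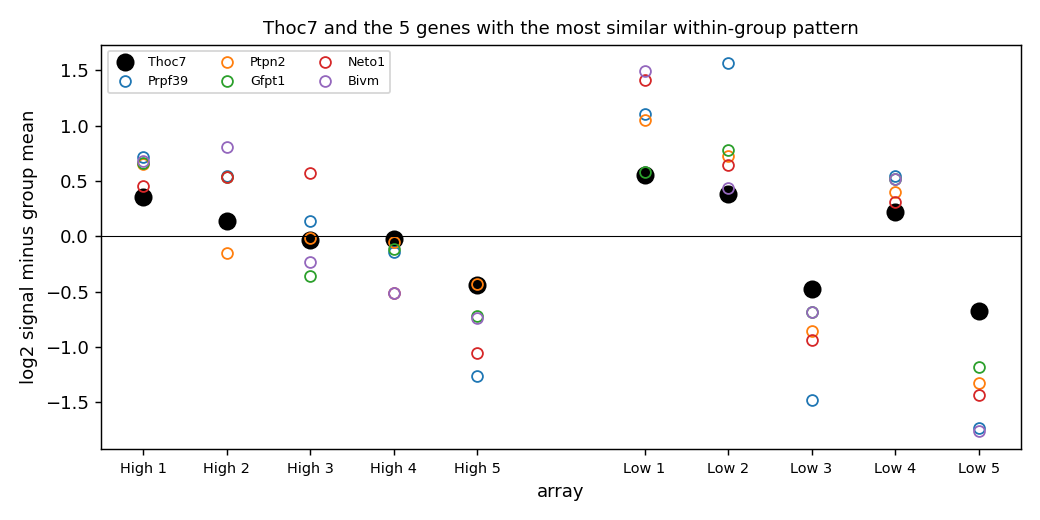
Log2 signal less the group mean (vertical axis) on each array (horizontal axis) for Thoc7 1448461_a_at (black) and the 5 genes with the highest r to it (open circles). On High Exploration replicate 5 and Low Exploration replicates 3 and 5 all 6 genes are below their group mean, and on High Exploration replicate 1 and Low Exploration replicates 1, 2 and 4 all 6 are above it.

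Around the 8 genes, 42 further genes of mRNA export were listed, of which 33 had a probe set and 27 were tested by their probe set of highest signal. None passed limma's threshold, and 20 were higher and 7 lower in High Exploration mice, with a median log2 difference of 0.62. Over all 56 tested probe sets of the listed genes, dimmer ones included, 37 were higher and the median was 0.52. For all tested probe sets of the array, of any brightness and not 1 per gene, the median was −0.31. The brightest probe sets of all genes were not summarised, so the 27 have no like background here or in the shares below. The median signal of an array averaged 171 for High Exploration mice, against 246 for Low Exploration mice. How far brightness enters these differences was not tested. At an unadjusted limma p under 0.05 there were 6 of 27, beside 30.2% of all tested probe sets. Under the same limit and higher in High Exploration mice there were 5 of 27, beside 9.67% of all tested probe sets. With the control level entered as a covariate, the median over the 27 genes was 0.08. The TREX-2 group, which tethers active genes to the pore, had all 5 tested genes higher by their brightest probe sets, at a median of 1.04. Over all tested TREX-2 probe sets 7 of 9 were higher, and dimmer tested probe sets of Eny2 gave −0.13, −0.64 and 1.24. Of the pore and release genes 3 of 6 were higher, at a median of −0.31. Adaptors and THO partners were higher for 6 of 8 genes, export receptor partners for 2 of 3, cap binding genes for 2 of 3 and exon junction genes for 2 of 2.

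Among the 27 genes, each by its brightest probe set, the largest positive differences were those of Sem1, Cetn3 and Nup153. Sem1, a small acidic protein of TREX-2 and of the proteasome, had signals of 17941.6, 22984.7, 59485.4, 4736.2 and 6678.2 in High Exploration mice, against 15866.2, 4329.4, 2955.2, 2980.4 and 2484.9 in Low Exploration mice (1418574_a_at, log2 difference 1.80, SE 0.69, limma adjusted p = 0.112). Cetn3, a centrin that also belongs to TREX-2, had 4810.1, 6931.7, 5849.2, 958.4 and 934.9 in High Exploration mice, against 4061.6, 836.9, 1135.7, 322.2 and 471.5 in Low Exploration mice (1417239_at, log2 difference 1.64, SE 0.75, limma adjusted p = 0.161). In both, High Exploration replicates 1, 2 and 3 and Low Exploration replicate 1 were the 4 highest arrays, so the groups overlapped. Nup153, a protein of the nuclear basket of the pore, had 2675.3, 3534.8, 3829.2, 1998.2 and 1749.4 in High Exploration mice, against 1659.2, 1143.8, 661, 1393.9 and 600.5 in Low Exploration mice (1441733_s_at). All High Exploration arrays were above all Low Exploration arrays there, without passing (log2 difference 1.38, SE 0.39, limma adjusted p = 0.0690), and the other Nup153 probe sets that were tested gave −0.50 and 0.85.

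By the same brightest probe sets, the largest negative differences were those of Ncbp3, Nup98 and Alyref. Dimmer tested probe sets of Gle1 and Poldip3 differed by −1.13 each. Ncbp3, which binds the cap of mRNA, had 236.5, 359.4, 498.1, 286.7 and 645.5 in High Exploration mice, against 1218.1, 622.5, 696.7, 636.7 and 1045.8 in Low Exploration mice (1439363_at, log2 difference −1.10, SE 0.38, limma adjusted p = 0.0906). The overlap rested on High Exploration replicate 5. Nup98, a pore protein that binds the export receptor, differed by −1.09 (1434220_at, SE 0.59, limma adjusted p = 0.220), and Alyref, the adaptor that joins TREX to Nxf1, by −0.97 (1417724_at, SE 0.45, limma adjusted p = 0.167). For Alyref 4 of 5 Low Exploration arrays were above every High Exploration array.

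Ddx39a, the close paralog of Ddx39b, was singled out after its values were seen. Its brightest probe set had 955.4, 1854.9, 1180.2, 580.3 and 719.5 in High Exploration mice, against 1089.2, 331.6, 204, 476.9 and 213.7 in Low Exploration mice (1438168_x_at, log2 difference 1.37, SE 0.50, limma adjusted p = 0.0997). Low Exploration replicate 1 reached into the range of the High Exploration mice, and the other 4 did not. Probe sets 1455814_x_at and 1451065_a_at differed by 2.18 and 2.07 (limma adjusted p = 0.106 and 0.0784). Below the limit on signal, 1438287_x_at differed by 2.07 and the dimmest, 1423643_at, by −0.23. How far probes of Ddx39a and Ddx39b bind the other's transcript was not tested, and the brightest Ddx39b probe set gave −0.23.

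Markers of the tissue were present. All 6 markers of hippocampal neurons (Neurod6, Prox1, Wfs1, Camk2a, Nrgn and Slc17a7) were above the limit on signal, and their summed signal ran from 13532 to 19328 in High Exploration and from 14580 to 19447 in Low Exploration mice. Of these 6, 2 were higher in High Exploration mice. Microglial markers (2 of 3 tested, 1 of them higher) summed to between 8491 and 28832 in High Exploration and between 21303 and 42864 in Low Exploration mice, and choroid plexus markers (2 of 3 tested, 1 of them higher) to between 18469 and 33801 in High Exploration and between 13862 and 24538 in Low Exploration mice. Astrocyte markers (3 of 3 tested, 2 higher) summed to between 11424 and 26831 in High Exploration and between 7932 and 15365 in Low Exploration mice. Interneuron markers (3 of 4 tested, 2 higher) summed to between 5613 and 19621 in High Exploration and between 4205 and 9413 in Low Exploration mice. Oligodendrocyte markers (1 of 2 tested, 1 higher) summed to between 39439 and 88517 in High Exploration and between 33285 and 99255 in Low Exploration mice. Endothelial markers (2 of 3 tested, 0 higher) summed to between 470 and 1295 in High Exploration and between 819 and 2801 in Low Exploration mice. Striatal markers (1 of 2 tested, 0 higher) summed to between 285 and 717 in High Exploration and between 462 and 1495 in Low Exploration mice. The defining markers Cx3cr1, Kl, Sst, Mog, Pecam1 and Drd2 were below the limit. No marker passed limma's threshold and none was listed at 0, and their part in the differences above was not tested. Signals of different probe sets depend on their probes, so no gene's level was set against that of another gene.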

How the data were processed

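RNA from the hippocampus of 10 mice was measured on Affymetrix 430 2.0 arrays, with 1 array per mouse. The labels name column extraction and standard labelling, whereas the methods also name Trizol and a double round of amplification, so these steps are not settled here. The authors deposited 1 signal intensity per probe set and array, computed with MAS 5.0 in Expression Console 1.1, which scales each array by a constant and leaves the shape of the distribution as it is. The mean after trimming 2% at both ends was 500.0 on every array. The depth of an array has no count, and the 5 arrays per group limit the precision. Labels do not say whether mice shared a litter or cage. With 1 array per mouse, the spread behind the p-values mixes that of mice with that of labelling and arrays. limma also draws the spread of each probe set toward that of the others.

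The 64 control probe sets were left out, and of the other 45037 probe sets 34945 had 1 symbol, 932 several and 9160 none (platform annotation). Log2 signal was compared with limma 3.58.1 (lmFit and eBayes, R 4.3.3) over the 22518 probe sets with a mean log2 signal above the median, with Benjamini-Hochberg adjustment. The fit was tested on simulated data. Genes, lists and tests were chosen with earlier results of these data known. Named in full were all Thoc7 probe sets, the brightest probe set of each other gene, the 3 largest positive and negative differences of the export list and the 5 patterns most like Thoc7. Other Thoc1 probe sets and Ddx39a were added after their values were seen. Alternatives were no filter, a filter on mean linear signal (chosen after seeing the data), median centring, quantile, cyclic loess and equal-control scaling, adding 23.0, the 10th percentile of signals, before log2, array weights, a control covariate and leaving out each array. Promoter sequences are those of RefSeq, GRCm38.p6.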

Additional observations from a re-analysis of the deposited data

Results flagged for a closer look

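In 52 groups of 5 arrays, those of the 20 probe sets and of the 6 named genes of the export list, 6 held a single array whose gap to the next one took up more than 0.71 of the range of log2 signal. Chance alone gives about 1 in 20 groups. On Thoc2 1444004_at Low Exploration replicate 1 had 1784, where the other Low Exploration arrays had 4722 to 6136. On Nxf1 1439092_at Low Exploration replicate 4 had 56.4 against 251.7 to 340.2 on the others of its group. On Thoc7 1453621_at High Exploration replicate 2 had 9.05, with the others of its group at 20.4 to 28.3, and on Thoc6 1434827_at the same array had 65.1, with the others at 25.7 to 33.2. Both of these probe sets were below the limit on signal. On Nup98 1434220_at High Exploration replicate 1 had 59.4, with the others at 273.6 to 497.9, and on Alyref 1417724_at High Exploration replicate 3 had 65.3, with the others at 185.9 to 262.7. The brightest Thoc7 probe set had no such array in either group.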

How the results depend on the processing

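No paired analysis was possible because the labels give no replicate numbers. The replicate numbers used here were given in the order of the samples in the series, and equal numbers do not link mice of different groups.

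Median centring and equal hybridisation controls add 0.54 and 0.61 to the log2 difference of every probe set, so that small negative differences turn positive by construction. With median centring the differences of tested probe sets that turned sign were 0.40 (Thoc2 1444004_at), 0.31 (Thoc2 1438736_at), 0.27 (Thoc3 1423971_at) and 0.31 (Ddx39b 1437984_x_at). With equal hybridisation controls they were 0.47, 0.38, 0.34 and 0.38 for the same probe sets. With quantile normalisation and cyclic loess they were −0.31 and −0.32 (Thoc1 1424641_a_at), 0.22 and 0.23 (Thoc2 1438736_at), and 0.016 and 0.0086 (Thoc3 1423971_at). With the control covariate they were 0.82 (Thoc2 1444004_at), 0.46 (Thoc2 1438736_at) and 0.27 (Thoc3 1423970_at). With single arrays left out, Thoc1 1420043_s_at ranged from −0.098 to 0.50 and Thoc2 1444004_at from −0.44 to 0.0035. Below the limit on signal, Thoc6 1434827_at also turned sign, from −0.50 as deposited. It was 0.039 with median centring, 0.11 with equal controls, 0.12 with quantile normalisation and 0.14 with cyclic loess. Ddx39b 1437367_at, also below the limit, ranged from −0.40 to 0.80 with single arrays left out.

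Thoc1 1420042_at passed with median centring, at a log2 difference of 1.38 (limma adjusted p = 0.0498), the 1 member to pass there, with Thoc7 not tested. Nup153 passed with median centring and with array weights (limma adjusted p = 0.0498 and 0.0428), 1 export gene each time. Member probe sets whose groups did not overlap numbered 3 with median centring (8.52% of all tested probe sets) and with equal controls (6.96%), 2 with quantile normalisation (5.85%) and with cyclic loess (6%), and 1 to 2 with single arrays left out (9.34% to 14.7%). Each count includes Thoc7, which was chosen for its separation.

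Of all probe sets, 32 passed without the filter (3 higher), 906 with median centring (830 higher, 76 lower), 5 with cyclic loess (2 higher), 366 with the pseudocount (42 higher), 2186 with array weights (612 higher) and 51 with the filter on mean linear signal (2 higher), an alternative chosen after seeing the data. None passed (0) with equal controls or the covariate, and with quantile normalisation 1 was higher. With single arrays left out the count ran from 2 to 1042, and the higher ones from 0 to 173, both highest without High Exploration replicate 5.

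The median over the other members was 0.40 with median centring, 0.47 with equal controls, 0.28 with the covariate, and −0.13 to 0.0035 with single arrays left out. The median over all tested probe sets was −0.47 without the filter, and 0.23, −0.0090, −0.017, 0.30 and −0.12 with median centring, quantile normalisation, cyclic loess, equal controls and the covariate, and −0.35 to −0.25 with single arrays left out. The export median was 1.16 with median centring, 1.23 with equal controls, 0.084 with the covariate, and 0.37 to 0.65 with single arrays left out. The cause of the other shifts was not tested. Probe sets below the limit on signal, Thoc5 and Thoc6 among them, are bounded by their low brightness.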

Other observations

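The arrays that were high for Thoc1 1424642_at were also high for the TREX-2 genes Sem1 and Cetn3, a pattern noticed after the values were seen. With the group means removed, r with that Thoc1 probe set was 0.87 for Sem1 and 0.82 for Cetn3 over 10 arrays, 0.69 for Neto1 and 0.49 for the bright Thoc7 probe set. High Exploration replicates 1, 2 and 3 and Low Exploration replicate 1 were the highest arrays for Thoc1 1424642_at with 3133, 4485, 3873 and 2332, and the other 6 arrays had 1392 or less. These values carry no test, and the other 4 Thoc1 probe sets did not show the same 4 arrays as highest. The range of r between this Thoc1 probe set and all tested probe sets was not computed. Whether Sem1 and Cetn3 stand out from other genes was therefore not tested.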
